A study of Homo sapiens with 6 samples.

Results

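The miR-548 family was followed in the small RNA libraries of an m7G immunoprecipitation from Caco-2 cells. Its members were taken by name, as every row of the miRNA count table whose name begins with miR-548, whatever the letter, copy or arm. This gave 80 members among 2588 miRNA rows. Of these, 47 (58.8%) had at least 1 count in the 6 libraries and 33 had none, whereas 67.4% of all rows had a count. Only 9 members (11.2%) were abundant enough for the test between m7G-RIP and input, against 30.9% of all rows. The remaining 38 members with counts were too rare and are described by their counts.

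Caco-2 is a human colorectal adenocarcinoma line, grown here without any treatment or knockdown. In all 6 libraries the starting material was total RNA from these cells, which was decapped and denatured with heat before the pulldown. The 3 input libraries came from RNA set aside before the pulldown, and the 3 m7G-RIP libraries from RNA bound by an antibody to N7-methylguanosine (m7G) and released with 7-methyl-GTP. The comparison of m7G-RIP with input asks which miRNAs are recovered with the antibody more, or less, than their abundance alone would give. No source states that the 3 libraries of a group came from separate cultures, so the p-values measure the spread between these libraries, which may be technical. Because 1 line in 1 state was sampled, nothing here speaks for other cells.

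The miR-548 genes are a primate miRNA family derived from MADE1, a short mobile element whose inverted ends can fold on themselves into a hairpin when a copy is transcribed. Such a hairpin is cut by Drosha and Dicer into a duplex of a 5p strand, from the side of the hairpin nearest its 5′ end, and a 3p strand, from the other side. Usually 1 strand is retained in the silencing complex, where its seed, bases 2 to 8 from the 5′ end, does most of the pairing with target mRNAs. m7G is a guanosine methylated at N7, so a strand with few guanosines offers few positions for it.

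Mature sequences were found in RefSeq (GRCh38.p14) for 54 of the 80 members, 7 of the 9 tested members among them. The sequences below belong to those 7 tested members and are grouped by arm, with the seed in capitals. The 5p members come first and share a core of A-rich bases followed by a guanosine pair, which is absent from the 3p members.
miR-548k: aAAAGUACuugcggauuuugcu
miR-548l: aAAAGUAUuugcggguuuuguc
miR-548j-5p: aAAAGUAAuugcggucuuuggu
miR-548q: gCUGGUGCaaaaguaauggcgg
miR-548o-3p: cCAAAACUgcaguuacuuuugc
miR-548f-3p: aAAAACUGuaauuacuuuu
miR-548ay-3p: cAAAACCGcgauuacucuugca
miR-548e-3p and miR-548az-5p were the other tested members.

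The 54 sequences held 29 different seeds, and 21 of these belonged to a single member. The most frequent seed was AAAGUAA, on 11 members of the 5p arm, of which 8 had counts and miR-548j-5p was tested. The seed AAAAACU was held by 7 members of the 3p arm, of which 4 had counts and none was tested. miR-548f-3p shared its seed with miR-548ar-3p, miR-548ay-3p shared its seed with miR-548at-3p, and miR-548k shared its seed with miR-548av-5p. The seeds of miR-548o-3p, miR-548l and miR-548q occurred on no other of the 54. Outside the family, miR-559 carries AAAGUAA, miR-8054 carries the seed of miR-548k, AAAGUAC, and miR-1323 carries the seed of miR-548o-3p, CAAAACU. Some members share more than a seed. The 18 bases of miR-548av-5p lie whole within miR-548k, and those of miR-548ap-5p lie whole within miR-548j-5p. The bases of miR-548av-3p lie whole within both miR-548o-3p and miR-548ah-3p. Short reads from either member of such a pair cannot be told apart.

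miR-548k and miR-548l are both 22 bases long and differ at 4 of them, written C8U, A15G, C21U and U22C, with the base of miR-548k first and positions counted from the 5′ end. C8U falls in the last base of the seed. Their hairpins are given because these are the most abundant 5p member and its near relative. The mature strand is in capitals, and the hairpin positions are GENCODE's in GRCh38.
MIR548K, chr11:70283955-70284070, plus strand: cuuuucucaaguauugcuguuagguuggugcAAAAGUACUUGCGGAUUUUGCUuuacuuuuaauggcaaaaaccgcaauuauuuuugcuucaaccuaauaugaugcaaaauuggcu
MIR548L, chr11:94466495-94466580, minus strand: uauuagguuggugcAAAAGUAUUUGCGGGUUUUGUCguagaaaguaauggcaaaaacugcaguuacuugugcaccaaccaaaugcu
In the structure predicted from sequence alone, 20 of 22 mature bases were paired in the hairpin of miR-548k and 18 of 22 in that of miR-548l.

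The annotation lists 72 miR-548 hairpin genes on 22 chromosomes. Of these, 55 (76.4%) lie inside another gene, and 36 lie inside a protein-coding gene on the same strand. The tested members followed this layout. MIR548K is intronic in PPFIA1, MIR548L in MRE11, MIR548E (chr10:110988926-110989013) in SHOC2 and MIR548J (chr22:26555212-26555323) in TPST2, each on the strand of its host. miR-548o-3p is encoded at 2 loci. MIR548O (chr7:102405742-102405855) lies opposite an intron of PRKRIP1, and MIR548O2 (chr20:38516563-38516632) lies in an intron of RALGAPB on the same strand. miR-548f-3p is encoded at 5 loci, in introns of ERBB4, TMEM232, PCDH15 and DMD and opposite an intron of CNTNAP2. MIR548Q (chr10:12725254-12725353) lies opposite an intron of CAMK1D. MIR548AY (chr3:32506283-32506389) and MIR548AZ (chr8:119325171-119325265) lie in no annotated host.

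An input library held 16466178 to 19628046 counts in total, and an m7G-RIP library 1654102 to 3105129. Levels are given as CPM, the counts scaled to a common library size with TMM factors, on which 3 counts are worth 0.235 to 0.262 CPM in an input library and 0.676 to 1.11 CPM in an m7G-RIP library. Rare members are therefore seen less precisely in m7G-RIP than in input. The labelled cell type was checked with marker miRNAs: all 3 of the intestinal epithelium and all 5 of the epithelium had counts in every library, miR-122-5p of liver had none, and the 4 of blood cells summed to 10.3 to 15.9 CPM in the input. The muscle markers summed to 673 to 752 CPM in the input, nearly all of it miR-1-3p.

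The family was a small and unevenly shared part of each library. The summed members had 3565, 4223 and 3499 counts in input replicates 1, 2 and 3, which is 0.0214%, 0.0215% and 0.0212% of the library. In m7G-RIP replicates 1, 2 and 3 they had 475, 357 and 207 counts, or 0.0154%, 0.0115% and 0.0125%. On the scaled level the sum was 304, 331 and 305 CPM in the input and 115, 80.4 and 76.3 CPM in m7G-RIP. Every m7G-RIP library was thus below every input library, with means of 313 ± 15.1 and 90.7 ± 21.5 CPM (SD, n = 3 each). miR-548o-3p alone made up 61.7% to 64.9% of the family's input counts and 45.4% to 70.7% of its m7G-RIP counts. The sum of the other members was also lower in m7G-RIP, at 114 ± 6.31 CPM in the input and 33.8 ± 7.87 CPM in m7G-RIP (SD, n = 3 each).

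Few members left counts in the antibody-bound RNA. All 47 members with a count had one in the input, and 35 had one in each single input library. In m7G-RIP, 16 members had a count, with 10 or 11 per library. Thus 31 members were counted in the input alone and none in m7G-RIP alone, while 7 members had counts in all 6 libraries. Since the input was the deeper of both kinds of library, a member with few input counts could be missed in m7G-RIP by depth, and 25 of the 47 had fewer than 10 counts in total.

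**Figure D1:**
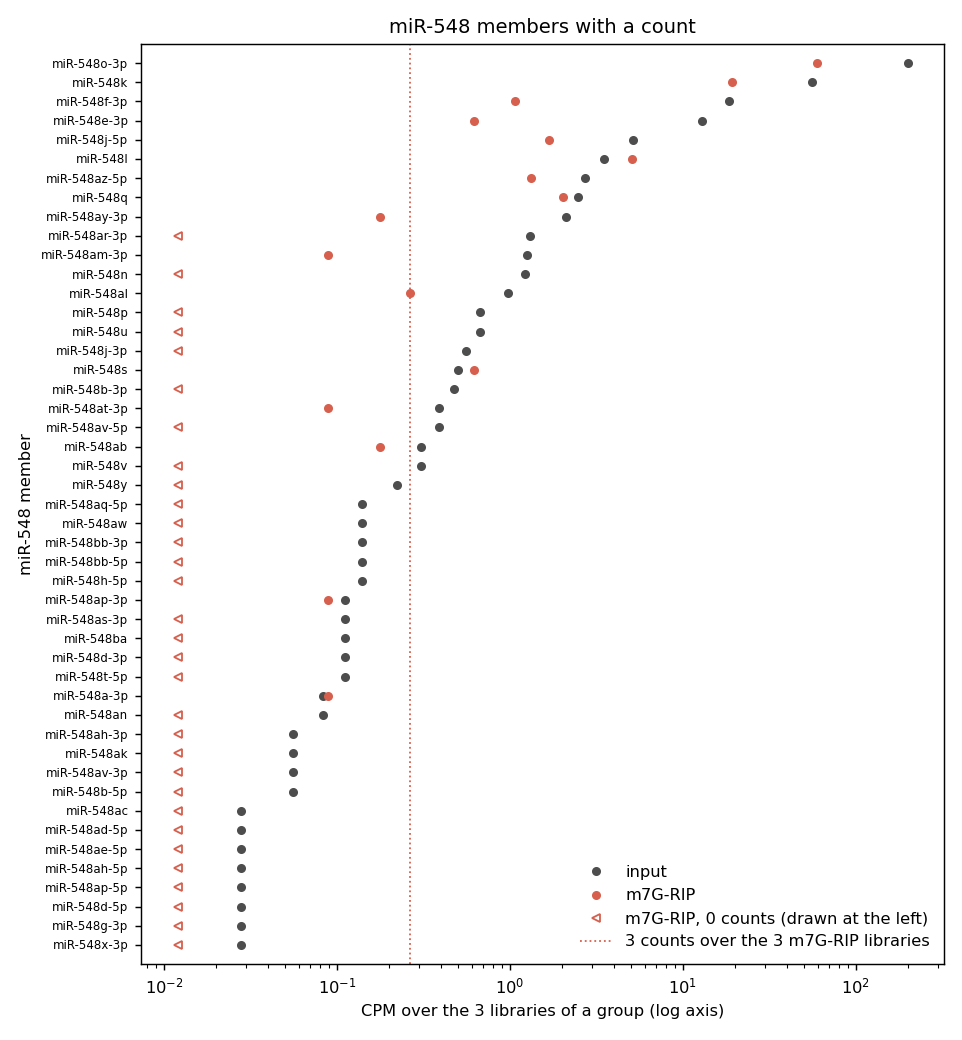
CPM of the 47 miR-548 members with a count (log axis), pooled over the 3 input libraries (dark) and the 3 m7G-RIP libraries (red), with open triangles at the left edge for members with 0 m7G-RIP counts and a dotted line at the level of 3 m7G-RIP counts, 0.266 CPM. Below miR-548ay-3p in this order, most members have no m7G-RIP count.

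Among the 9 tested members, 6 were depleted in m7G-RIP, none was enriched and 3 passed in neither direction (edgeR quasi-likelihood test, adjusted p under 0.05 over all 800 miRNAs tested). Across all miRNAs tested, 38.1% were depleted and 40.1% were enriched. None of the 9 was higher at an unadjusted p under 0.05, and the DESeq2 Wald test also called none enriched and 6 depleted, with 34.2% and 42.1% of all miRNAs tested. The m7G-RIP and input libraries did not overlap for 8 of the 9, with 7 lower and 1 higher in m7G-RIP, where 40.8% and 41.4% of all miRNAs tested were lower and higher in that sense. miR-548f-3p, miR-548e-3p, miR-548az-5p and miR-548ay-3p reached the abundance filter in fewer than 3 m7G-RIP libraries. They were tested mainly through their input level, which favours a lower m7G-RIP level, so these counts describe the 9 and are no measure for the family.

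**Figure D2:**
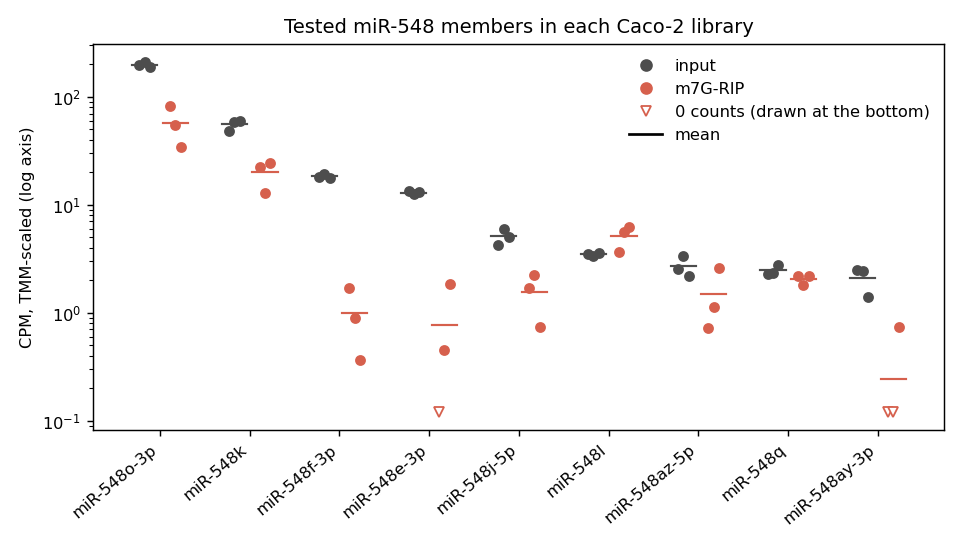
CPM of the 9 tested members in each of the 3 input (dark) and 3 m7G-RIP (red) libraries on a log axis, with the group mean as a bar and open triangles for 0 counts. The groups overlap only in miR-548az-5p, and miR-548l is the 1 member whose m7G-RIP libraries all lie above its input libraries.

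The 3p strands included the most abundant member and the most depleted ones. miR-548o-3p stood at 197, 212 and 188 CPM in input replicates 1 to 3 and at 81.6, 54.5 and 34.6 CPM in m7G-RIP replicates 1 to 3. Its lowest input library was above its highest m7G-RIP library. The log2 enrichment, the fitted log2 ratio of m7G-RIP to input, was -1.80 (SE 0.25, edgeR adjusted p = 2.36e-05). All 6 of its raw counts were even numbers (2312, 2712 and 2158 in the input, 336, 242 and 94 in m7G-RIP). Among rows of the table with 2 annotated loci and counts in all 6 libraries, 10 of 37 (27.0%) had 6 even counts, against 10 of 620 (1.61%) with 1 locus. Whether each read was counted at both of its loci is not stated. Halving its counts in all 6 libraries leaves the ratio of m7G-RIP to input as it was. The log2 enrichment of -1.79 obtained in this way is therefore no check on the counting.

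miR-548f-3p, with the fewest guanosines among the tested members with a sequence, stood at 18.1, 19.4 and 17.9 CPM in the input. In m7G-RIP it stood at 1.70, 0.901 and 0.368 CPM, from 7, 4 and 1 counts. The groups lay far apart, with a log2 enrichment of -4.11 (SE 0.42, edgeR adjusted p = 1.18e-06). Over the pooled libraries its m7G-RIP level was 0.0575 of its input level (exact 95% interval 0.0296 to 0.101, counting error only). miR-548e-3p stood at 13.3, 12.5 and 13.2 CPM in the input and at 0, 0.450 and 1.84 CPM in m7G-RIP, from 0, 2 and 5 counts. Its input libraries were nearly equal and all above the m7G-RIP libraries, at a log2 enrichment of -4.31 (SE 0.60, edgeR adjusted p = 2.56e-05), or -5.80 without m7G-RIP replicate 3. In the order of all 800 log2 enrichments, miR-548e-3p was the 59th and miR-548f-3p the 66th from the lowest. miR-548ay-3p was rarer, at 2.47, 2.43 and 1.40 CPM in the input and 0, 0 and 0.737 CPM in m7G-RIP. Its groups did not overlap, but the m7G-RIP level rests on 2 counts in a single library. The ratio of its pooled levels was 0.0839 (exact 95% interval 0.00998 to 0.314), and the fitted log2 enrichment was -3.41 (SE 0.95, edgeR adjusted p = 0.00511). With library sizes scaled by total counts, its adjusted p was 0.0594, and without m7G-RIP replicate 3 it had no m7G-RIP count at all.

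The 5p strands ran from depleted to slightly higher in m7G-RIP. miR-548k, the second most abundant member, stood at 48.6, 58.9 and 59.4 CPM in the input and at 22.6, 12.8 and 24.3 CPM in m7G-RIP. All its input libraries were above all its m7G-RIP libraries, and its log2 enrichment was -1.50 (SE 0.26, edgeR adjusted p = 0.000144). miR-548j-5p stood at 4.26, 5.95 and 5.06 CPM in the input and at 1.70, 2.25 and 0.737 CPM in m7G-RIP. These groups did not overlap either, at a log2 enrichment of -1.62 (SE 0.47, edgeR adjusted p = 0.00652). Both calls depend on the scaling. With total counts as library sizes the median of all miRNAs tested was 1.23 in place of 0.16, miR-548k was at -0.39 (adjusted p = 0.219) and miR-548j-5p at -0.56 (adjusted p = 0.286), and with upper-quartile factors miR-548j-5p was at -0.81 (adjusted p = 0.148), all in edgeR. Taken relative to the median of all miRNAs tested, miR-548k was at -1.66 with TMM factors and -1.61 with total counts, and miR-548j-5p at -1.78 with either.

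The other 3 tested 5p members passed in neither direction. miR-548l stood at 3.50, 3.37 and 3.58 CPM in the input and at 3.64, 5.63 and 6.26 CPM in m7G-RIP. It was the 1 tested member with every m7G-RIP library above every input library, although its lowest m7G-RIP library was barely so. Its log2 enrichment of 0.56 (SE 0.39, edgeR adjusted p = 0.199) did not pass, while with total counts it was 1.66 (adjusted p = 0.0034) and with upper-quartile factors 1.37 (adjusted p = 0.0058). Relative to the median of all miRNAs tested it was 0.40 with TMM factors and 0.44 with total counts. miR-548q stood at 2.30, 2.35 and 2.79 CPM in the input and at 2.18, 1.80 and 2.21 CPM in m7G-RIP. Its m7G-RIP libraries were lower by a small margin, at a log2 enrichment of -0.27 (SE 0.46, edgeR adjusted p = 0.597) whose sign turned with total counts and upper-quartile factors. miR-548az-5p stood at 2.56, 3.37 and 2.18 CPM in the input and at 0.728, 1.13 and 2.58 CPM in m7G-RIP. m7G-RIP replicate 3 lay above 2 of the input libraries, so the groups overlapped, and its log2 enrichment was -0.96 (SE 0.56, edgeR adjusted p = 0.132). Without that library it was -1.61 (adjusted p = 0.0266), and with total counts it was 0.15.

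**Figure D3:**
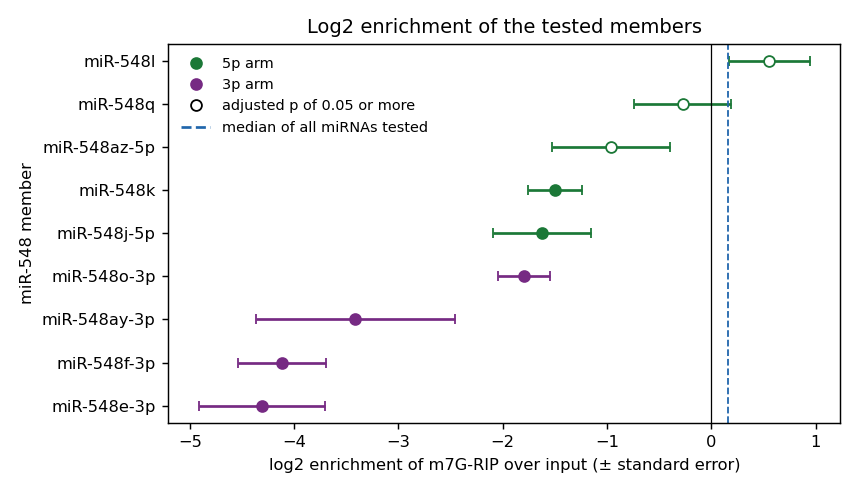
Log2 enrichment of m7G-RIP over input for the 9 tested members (± SE, edgeR), 5p members in green and 3p members in purple, with open circles for adjusted p of 0.05 or more and a dashed line at the median of all 800 miRNAs tested, 0.16. The 4 purple 3p members, from -1.80 to -4.31, lie below all 5 green 5p members, from -1.62 to 0.56.

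Arms were compared over the whole family. By name, or by the place of the mature sequence in its GENCODE hairpin where the name gives no arm, 41 members were 5p strands, 33 were 3p strands and 6 could not be placed. Counts were found for 22 of the 5p and 23 of the 3p members, and m7G-RIP counts for 6 and 10 of them. All 4 tested 3p members were depleted, with a median log2 enrichment of -3.76 (range -4.31 to -1.80), and 2 of the 5 tested 5p members were, with a median of -0.96 (range -1.62 to 0.56). Both medians were below that of all miRNAs tested, 0.16. Over all miRNAs whose names give an arm, the medians were 0.40 for 329 5p strands and -0.31 for 314 3p strands, and 38.6% and 42.7% were depleted. The arm medians of the family come from few members, 3 of the 4 in the 3p arm having reached the filter mainly through their input level, and no test was made of their difference.

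The 5p share of the family's counts was higher in m7G-RIP. In input replicates 1, 2 and 3, 5p strands were 21.3%, 23.3% and 24.9% of the counts of members with an arm (exact 95% intervals 20.0 to 22.7, 22.0 to 24.6 and 23.5 to 26.4). In m7G-RIP replicates 1, 2 and 3 they were 26.7%, 30.0% and 47.3% (22.8 to 31.0, 25.3 to 35.0 and 40.4 to 54.4). Every m7G-RIP library was above every input library, yet the interval of m7G-RIP replicate 1 reached into those of the input, and replicate 3 stood apart. The group means were 23.2 ± 1.82% and 34.7 ± 11.1% (SD, n = 3 each). The share is set chiefly by miR-548o-3p and miR-548k, which together held 80.8% to 82.0% of the family's input counts. Without this pair it was 27.9%, 30.3% and 29.1% in the input and 73.9%, 86.2% and 68.1% in m7G-RIP, from 29.1 ± 1.24% to 76.1 ± 9.25% (SD, n = 3 each). Without the pair, 3p strands were thus the larger portion of the input counts and 5p strands the larger portion of the m7G-RIP counts. This rests on few members. The remaining 3p input counts were chiefly those of miR-548f-3p (665) and miR-548e-3p (466), which reached the filter mainly through their input level. Of the remaining 5p members, miR-548l had the most m7G-RIP counts (57). These shares are ratios within a library and do not depend on the scaling. The counts in the m7G-RIP libraries behind the second set of shares were few, as their wide intervals show (58.9 to 85.7, 74.6 to 93.9 and 52.9 to 80.9).

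**Figure D4:**
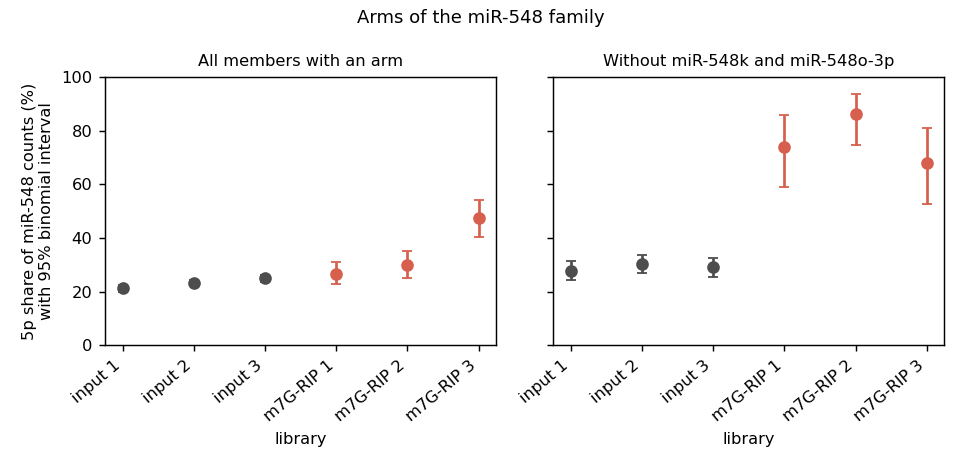
Share of miR-548 counts that came from 5p strands (percent) in each library, with exact 95% binomial intervals, for all members with an arm (left) and without miR-548k and miR-548o-3p (right). On the left the input libraries lie at 21.3% to 24.9% and m7G-RIP at 26.7% to 47.3%, and on the right at 27.9% to 30.3% and 68.1% to 86.2%.

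By letter, which can cover several hairpins, 1 arm held most counts wherever there were more than a few. Letters with only a few counts say little about their arms. Both arms were listed for 28 letters. The 3p arm had more counts in 15 of these, the 5p arm in 8, the arms were equal in 1, and 4 had no count in either. Counts in both arms were found for 7 letters. miR-548o, miR-548f and miR-548e were counted as 3p strands alone, with 7854, 677 and 473 counts over the 6 libraries against 0 for the 5p arm. miR-548j had 203 counts in the 5p arm and 20 in the 3p arm, and all 20 of the latter were input counts (8, 6 and 6). miR-548az was counted as 5p alone, with 113 counts. The 5p arm of miR-548o had no sequence here, so its genome matches are not known. As no letter had both arms tested, the arm ratio within a letter could not be compared between m7G-RIP and input.

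Reads that fit many places are often left unassigned in small RNA mapping, so the number of places of each sequence in the genome is set beside its counts. Exact matches of each of the 54 mature sequences were counted on both strands of the 24 nuclear chromosomes of GRCh38. The STAR settings in the study's methods kept reads with up to 10 places, whereas the processing notes of the counts name Bowtie2. The sequence occurred at most 10 times for 41 members, of which 31 had a count, and more than 10 times for 13 members, of which 5 had a count. The sequence below is shared by miR-548x-5p, miR-548g-5p and miR-548aj-5p and matched at 550 sites, and it had 0 counts under each of these names.
miR-548x-5p: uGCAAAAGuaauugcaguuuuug
miR-548ar-5p matched at 584 sites and miR-548aq-3p at 572, and both had 0 counts as well. miR-548f-3p had 677 counts and 34 matching sites. No other member with more than 10 sites had over 2 counts. The unequal arms of miR-548f and miR-548ar therefore set a 5p sequence with 25 and 584 sites against a 3p sequence with 34 sites and 1 site. In miR-548j, with 1 site for the 5p and 3 for the 3p sequence, and in miR-548at, with 1 site for each, both arms had few sites. miR-548at had 15 counts in the 3p arm and 0 in the 5p arm. The 5p sequence of miR-548e also had 1 site and 0 counts, beside the 473 of its 3p arm. Whether the number of sites affects the counts, and how the counts of repeated sequences were assigned, was not tested.

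The members too rare for the test were also lower in m7G-RIP when summed. Together the 38 untested members had 138, 129 and 132 counts in the input and 5, 4 and 7 in m7G-RIP, or 11.1 ± 0.895 and 1.56 ± 0.892 CPM (SD, n = 3 each). The groups of sums did not overlap. Such a lean is not particular to the family. With all rows kept, the median log2 enrichment over all 1744 miRNAs was -0.85, against 0.16 over the 800 tested, and -0.31 was the median shift between the 2 fits. No sum of other untested miRNAs is set beside these members. In 31 of the 38 there was no m7G-RIP count, and for 23 of these the input level was no higher than 3 counts over the 3 m7G-RIP libraries are worth, 0.266 CPM, so that a difference was not detectable at this depth. For the other 8, putting 3 m7G-RIP counts in place of 0 gave levels 1.15-fold to 4.91-fold lower in m7G-RIP. The input counts were taken as exact, so these values are not strict bounds, and they were not tested.

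The most abundant of them were 3p strands and miR-548n. miR-548ar-3p, with the seed of miR-548f-3p, had 10, 16 and 21 input counts and none in m7G-RIP, 4.91-fold lower with 3 counts in place of 0. miR-548n of the 5p arm had 15, 12 and 17 input counts and none in m7G-RIP, 4.60-fold lower in the same way. miR-548am-3p had 45 input counts and 1 m7G-RIP count, a ratio of 0.0709 (exact 95% interval 0.00176 to 0.415). Their sequences follow, since they extend the picture of both arms beyond the tested members.
miR-548ar-3p: uAAAACUGcaguuauuuuugc
miR-548am-3p: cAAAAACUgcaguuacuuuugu
miR-548n: cAAAAGUAauuguggauuuugu
miR-548al of the 3p arm had 11, 10 and 14 counts in the input and 3, 0 and 0 in m7G-RIP, a ratio of 0.273 (0.0538 to 0.867). miR-548s, also of the 3p arm, had 7, 7 and 4 counts in the input and 0, 1 and 6 in m7G-RIP, with a ratio of 1.24 (0.438 to 3.11) that covers both directions and rests mostly on m7G-RIP replicate 3.

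The family was poor in guanosine. The 54 members with a sequence had a median of 4 guanosines (range 1 to 9) and 65.9% A and U, whereas all 2370 miRNAs with a sequence had medians of 6 guanosines and 47.8% A and U. The arms differed in this. 5p members had a median of 5 guanosines (range 3 to 9), and 21 of 29 contained GG. 3p members had a median of 3 (range 1 to 5), and 4 of 25 contained GG. The share of A and U was close in both, with medians of 65.0% and 66.7%.

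Among the 7 tested members with a sequence, those with more guanosines had the higher log2 enrichment, with miR-548j-5p and miR-548q out of order. miR-548f-3p and miR-548ay-3p, at the low end, reached the filter mainly through their input level, the group in which they were high, so the order describes these 7 and supports nothing about the family. miR-548f-3p had 1 guanosine, miR-548ay-3p and miR-548o-3p had 3 each, miR-548k had 5, miR-548j-5p and miR-548l had 6 each, and miR-548q had 9. Spearman's rho of guanosine number with log2 enrichment was 0.87 and Pearson's r 0.83 over these 7, with 0.49 and 0.49 over the 707 other miRNAs tested. The share of A and U gave -0.22 and -0.52 in the family and -0.45 and -0.42 in the others. These are descriptions across miRNAs that share libraries, arms and ancestry. In the family the number of guanosines and the arm go together, so they cannot be told apart.

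Set beside all tested miRNAs with a like number of guanosines, which include the members themselves, the members lay on both sides. Among miRNAs tested with 0 to 2 guanosines (n = 64) the median log2 enrichment was 0.61 (quartiles -0.97 and 1.58), far above the -4.11 of miR-548f-3p. With 3 or 4 guanosines (n = 140) it was -1.32 (quartiles -3.08 and 0.44), with miR-548o-3p inside the quartiles and miR-548ay-3p under them. With 5 or 6 (n = 179) it was -1.38 (quartiles -3.10 and 0.27), with miR-548k and miR-548j-5p close to the median and miR-548l above the upper quartile. With 9 or more (n = 185) it was 2.84 (quartiles 1.95 and 3.61), and miR-548q at -0.27 lay under them. The relation over all miRNAs was thus not steady at low guanosine numbers.

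**Figure D5:**
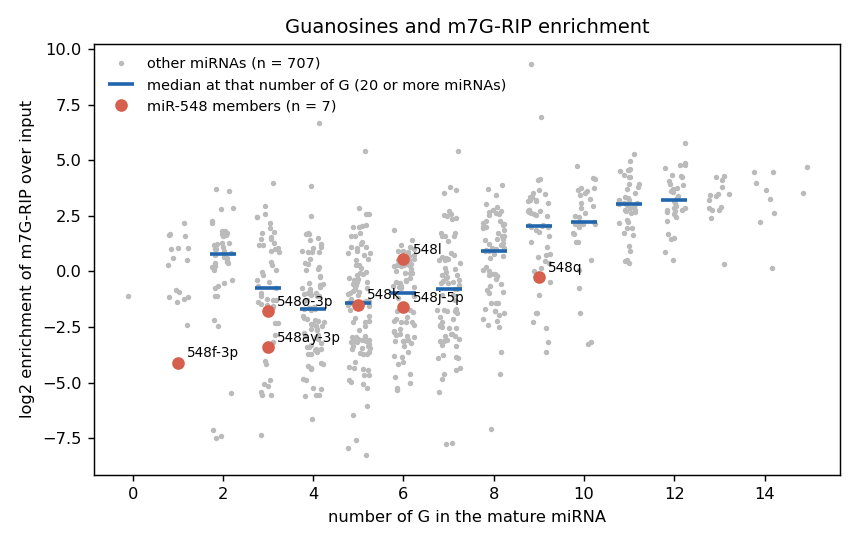
Log2 enrichment of m7G-RIP over input against the number of guanosines in the mature miRNA, with the 7 tested miR-548 members in red, the 707 other miRNAs in grey (points shifted sideways at random for sight) and the median at each number as a blue bar where 20 or more miRNAs share it. miR-548f-3p and miR-548q lie below the bulk of miRNAs with as many guanosines, and miR-548l lies above its median.

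The letters GCGG were found in the 4 tested 5p members with a sequence and in none of the 3 tested 3p members. Of all 714 tested miRNAs with a sequence, 52 (7.28%) contained them, with a median log2 enrichment of 1.91, against 0.05 for the rest. The 4 members, from -1.62 to 0.56, were all below that median. GG alone, which GCGG includes, was found in 529 (74.1%), with a median of 0.50, against -0.65 for the rest. Only the strand of the mature miRNA was searched.

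The pair miR-548k and miR-548l, which have 5 and 6 guanosines and differ at the 4 bases given above, did not move alike. miR-548k had 13.9, 17.5 and 16.6 times the counts of miR-548l in input replicates 1 to 3, and 6.20, 2.28 and 3.88 times in m7G-RIP replicates 1 to 3. All 3 m7G-RIP ratios were below all 3 input ratios, and library scaling cancels in them. This pair was chosen after its values were seen, so no test is given. A15G lengthens the guanosine pair before it to a run of 3 in miR-548l.

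Other miRNAs derived from mobile elements give a point of reference. miR-570 and miR-603, also attributed to MADE1, were too rare to test: miR-570-3p had 11, 10 and 4 input counts and miR-603 had 2, 2 and 1, with none in m7G-RIP. Of 7 rows of miR-28, miR-151 and miR-708, which derive from LINE2 elements, 5 were tested. Of these, 4 were depleted and none was enriched, where 38.1% and 40.1% of all miRNAs tested were. The 5 had a median log2 enrichment of -0.62 (range -0.98 to -0.53). No test was made between these lists and the miR-548 members.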

How the data were processed

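The 6 small RNA libraries of Caco-2 cells, 3 of input and 3 of m7G-RIP, were grouped by their labels. The authors deposited raw counts for each mature miRNA, made with Trimmomatic and featureCounts. The processing notes name Bowtie2 for mapping, whereas the study's methods name STAR with GRCh38, keeping reads that map to up to 10 places. How a read kept at several places was then counted is not given in the sources used here. The values are whole numbers, not normalized or pooled.

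Enrichment was fitted over the whole table with edgeR 4.0.16 in R 4.3.3: filterByExpr (minimum count 10, minimum total 15), TMM factors, the quasi-likelihood test and Benjamini-Hochberg adjustment over 800 miRNAs, called at an adjusted p under 0.05. SE is the absolute log2 enrichment divided by the square root of F. CPM is on TMM-scaled library sizes. The steps were tested on simulated data. Ratios and shares carry exact (Clopper-Pearson) 95% intervals. The fold difference for a member with 0 m7G-RIP counts uses 3 counts over the 3 m7G-RIP libraries and takes its input count as exact. Reads carry no molecular identifiers, so intervals cover counting error only. Within a group, chi-square divided by its degrees of freedom was at least 17.5 for each pair of libraries, so none was a copy.

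Sequences are RefSeq's (GRCh38.p14) and positions GENCODE 44's. Arms missing from a name were read from the mature sequence's place in its GENCODE hairpin. Hairpins were folded with RNAfold 2.7.2, and 1 hairpin sequence is not reported here. Genome matches were counted after the values had been seen. Python 3.11.15, numpy 2.4.6, pandas 2.3.3, scipy 1.17.1 and matplotlib 3.10.9 were used. Every tested member is named, with the 5 untested members of highest count. The members, lists and rules were chosen with earlier results of these data known.

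The alternatives were DESeq2 size factors, total counts, upper-quartile factors, the Wald test of DESeq2 1.42.0, all rows kept, a minimum of 10 counts in each library, the replicate block, an adjusted p under 0.01, an absolute log2 enrichment of at least 1, identical sequences summed, the 5p share without miR-548k and miR-548o-3p, each library left out and, added after the data were seen, miR-548o-3p counts halved.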

Additional observations from a re-analysis of the deposited data

How the results depend on the processing

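The 6 depleted and 0 enriched members were obtained also with the DESeq2 Wald test, where 42.1% and 34.2% of all miRNAs tested were called. DESeq2 size factors and an adjusted p under 0.01 gave the same counts, but the shares over all miRNAs are not given for these settings. Halving miR-548o-3p gave them too, though it leaves every ratio of m7G-RIP to input nearly as it was. With total counts there were 3 depleted and 1 enriched (miR-548l) of 9, where 24.8% and 55.2% of all miRNAs tested were called, with medians of -0.56 over all tested members, 0.15 over 5p and -2.72 over 3p members, and the signs of miR-548q (0.81) and miR-548az-5p (0.15) turned. With upper-quartile factors 5 members were depleted and 1 was enriched (miR-548l), where 28.4% and 52.2% of all were called, the medians were -0.81, -0.16 and -2.97, and miR-548q was at 0.55. The median of all miRNAs tested, 0.16, was itself 1.23 and 0.97 under these scalings, -0.19 with DESeq2 size factors, -0.22 with its Wald test, -0.85 without the filter and 0.16 with at least 10 counts in every library. The 3p median was -4.10 with DESeq2 size factors, and with the DESeq2 Wald test it was -4.14, with -1.99 over all tested members. Without the filter 47 members entered and 13 were depleted, where 24.3% of all 1744 were, and the medians were -2.24, -2.08 for 5p and -3.08 for 3p. With at least 10 counts in every library, 3 members remained, of which 2 were depleted, where 41.1% of all 426 were, and the 3p value was -1.94 from 1 member.

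Leaving out each library gave 5 to 10 depleted members: 5 without input replicate 1, 2 or 3, when miR-548ay-3p was not tested, 10 without m7G-RIP replicate 1 or replicate 3, and 9 without m7G-RIP replicate 2, when 13 members were tested. The filter moved with the library left out, so these counts come from different sets of members and cannot be compared with the main fit. The untested members of highest count, which enter as the filter loosens, were counted mainly in the input. No member was enriched in any of these fits. Of all miRNAs tested, 31.8% to 40.4% were enriched and 35.0% to 39.0% were depleted. The median ranged from -2.85 to -1.62, that of 5p members from -1.57 to -1.17 and that of 3p members from -4.74 to -3.13. The 5p share ranged from 22.3% to 24.1% in the input and from 28.4% to 38.7% in m7G-RIP, with 28.4% when m7G-RIP replicate 3 was left out. Without miR-548k and miR-548o-3p the mean shares were 29.1% and 76.1%, and with miR-548o-3p halved 34.0% and 49.3%. Over all alternatives, 110 values of single members kept their direction and side of the threshold, 3 turned in sign, 3 passed it newly and 4 lost it.

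The replicate numbers did not pair the libraries: deviations from the group means of same-numbered libraries correlated at -0.0142, -0.0275 and 0.0600, and not every library matched its own number best. With the replicate block 6 members were depleted and none enriched, where 36.9% and 37.0% of all were, with medians of -1.68 over all tested members, -0.99 over 5p and -3.78 over 3p members. Depth limits the m7G-RIP side, where miR-548ay-3p rests on 2 counts and 31 members have none.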
